A study of Mus musculus with 8 samples.

Results

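The contractile genes of the myofibroblast were followed by name through allele-specific RNA sequencing of clonal female mouse embryonic fibroblasts (MEFs). The 10 genes were Acta2, Tagln, Cnn1, Cnn2, Myl9, Tpm1, Tpm2, Actg2, Myh9 and Srf, and each was found among the 46078 genes counted. The labels give the cells as a cross of the strains 129S1/SvImJ and CAST/EiJ, so a read over a strain difference could be assigned to 1 allele. The study names 129Sv4/Jae as the source of the 129 X chromosome and split reads by strain differences of 129S1/SvImJ. The allele is therefore called 129 here. Over all genes 77.2% to 82.7% of the reads in a pool came from 129, and not every region was read from both strains. Transcription was compared in 4 groups of 2 samples each, and the reads of both replicates of a group had been pooled before counting. WT cells kept Xist on the inactive X chromosome, which is the 129 copy in these lines. XiΔXist cells lacked Xist on that chromosome. The other two groups, shSCR and shYY1, were XiΔXist cells given a lentiviral hairpin and selected with puromycin, either a scrambled control or a hairpin against the transcription factor YY1. The shYY1 pool joined 2 different hairpins, 1 per replicate, and each line came from 1 clone. With 1 pool per group there was no replicate error, so every interval given covers counting error alone, a difference between 2 pools is a difference between those libraries, and a clone cannot be told apart from its genotype. No test across replicates could be made.

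Fibroblasts become myofibroblasts when they assemble bundles of actin and myosin that pull on the matrix, as in a healing wound or a stiff culture dish. Much of this programme is driven by serum response factor, encoded by Srf, which binds a promoter element called the CArG box, a run of A and T bases flanked by a pair of C and a pair of G. Its partners of the MRTF family are held back by actin monomers, so that actin assembly, and signalling by TGF-beta, both raise the contractile genes. Acta2 encodes smooth muscle alpha-actin, the usual mark of a myofibroblast, and Actg2 the gamma-actin of smooth muscle. Tagln encodes transgelin and Cnn1 and Cnn2 encode calponins, which bind actin filaments. Tpm1 and Tpm2 encode tropomyosins that lie along the filament, Myl9 a regulatory light chain of myosin, and Myh9 the heavy chain of non-muscle myosin IIA.

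The proximal promoters are shown because the element read by serum response factor lies just before the start of several of these genes. RefSeq promoter windows (GRCm38.p6) were given for 8 of the 10 genes, and Tagln and Actg2 were not analysed here. The starts used for promoters are those of RefSeq, while the gene spans given below are those of GENCODE. These can differ, and the stretch shown for Acta2 lies within its GENCODE span. Both strands of each window were searched for the CArG box. Boxes are in capitals, with the rest of the stretch in lower case, 5′ to 3′ on the strand of the gene.
Acta2, chr19:34255383-34255472, minus strand: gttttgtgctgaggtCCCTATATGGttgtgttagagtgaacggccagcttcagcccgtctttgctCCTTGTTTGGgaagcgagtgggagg
Cnn2, chr10:79988529-79988568, plus strand: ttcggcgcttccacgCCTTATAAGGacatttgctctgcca
Myl9, chr2:156775288-156775389, plus strand: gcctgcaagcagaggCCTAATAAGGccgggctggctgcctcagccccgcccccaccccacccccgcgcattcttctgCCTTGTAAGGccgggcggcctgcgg
Srf, chr17:46556177-46556259, minus strand: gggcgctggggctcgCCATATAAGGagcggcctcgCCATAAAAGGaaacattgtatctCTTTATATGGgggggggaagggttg
The box of Cnn2, the first box of Myl9 and the first and second boxes of Srf matched the consensus exactly, and the other boxes shown were 1 base off. The window of Tpm1 held 2 boxes that were each 1 base off, and the windows of Cnn1, Tpm2 and Myh9 held none. Sequence outside the windows was not searched. An exact box was present in 1.63% of all 32851 promoter windows and a box at most 1 base off in 21.1%. The TEAD motif GGAATG lay before Acta2 and Tpm1 and in 14.7% of all windows. The YY1 motif CCATNTT, found in 16.1% of all windows on either strand, was in none of the 8.

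Allelic reads numbered 24310035 and 28329701 in the untreated WT and XiΔXist pools, against 2393545 and 2504345 in the shSCR and shYY1 pools. Mitochondrial reads made up 20.2% to 22.3% of the untreated pools and 36.7% to 39.5% of the hairpin pools. Xist, the deleted gene, had 35405 reads in the WT pool against 21 in untreated XiΔXist, 0 with shSCR and 6 with shYY1. Yy1 stood at 63.3 CPM (reads per 1000000 allelic reads of the pool) in WT and 59.9 in XiΔXist, against 99.0 with shSCR and 36.7 with shYY1, and its ratio of shYY1 to shSCR was 0.371 (exact 95% interval 0.288 to 0.474). All 10 fibroblast markers were read in WT and in XiΔXist, with a summed level of 5093 and 3653 CPM, while Dcn and Lum were at 0 in shSCR and Lum in shYY1, where the sums were 4864 and 5476 CPM. Of 8 markers of smooth muscle and pericytes, the summed level was 15.9 CPM in WT and 2.61 in XiΔXist, against 52.6 with shSCR and 53.5 with shYY1. Within that list Des had 0 reads in 3 pools and 1 in the other and Myh11 had 1 to 4, while Synpo2 had 227 reads and Myocd 90 in WT, and Smtn had 78 with shSCR and 87 with shYY1 (32.6 and 34.7 CPM). Of 9 striated muscle markers 6 or 7 were at 0 in each pool, among them Myod1, Myog and Pax7, and the rest summed to 6.50 and 8.37 CPM in WT and XiΔXist and 30.1 and 20.8 in shSCR and shYY1. Epithelial markers summed to at most 0.799 CPM in any pool, endothelial markers to at most 2.96 and leukocyte markers to at most 11.6.

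A gene was called higher or lower at a 2-fold difference in log2(CPM + 1) if it had at least 50 reads over both pools. The added 1 makes fold changes of low genes smaller than the plain ratios of CPM given beside them. Reads without a strain difference were not counted, so levels are compared between pools and not between genes.

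XiΔXist was compared with WT to ask what differed between lines with and without Xist. Acta2, Tagln and Myl9 were at least 2-fold lower in XiΔXist, none of the 8 genes with enough reads was higher, and Srf itself was level. The log2 changes of the 8 had a median of -0.75, against -0.11 over all 10763 genes tested. Called lower were 3 of the 8, where 6.21% of all genes tested were lower and 3.07% higher. TMM, a scaling that trims extreme genes, moved the median of all genes to 0.01, and with the median of all genes set to 0 Acta2 stood at -2.33, Tagln at -1.51, Myl9 at -0.89 and Tpm1 at -0.84.

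Acta2 (chromosome 19, 34241090 to 34255590, minus strand) stood at 42.0 CPM in WT and 6.88 in XiΔXist, against 437 with shSCR and 574 with shYY1. In CPM both hairpin pools were above WT, and untreated XiΔXist was lowest by far. The hairpin libraries also differed from the untreated ones in depth and mitochondrial share, and no call was made between them and WT. The level in WT was 6.10 times that in XiΔXist (interval 5.22 to 7.14), a log2 change of -2.45 that lay at the 1.52 percentile of all genes. All of its 1020, 195, 1047 and 1438 reads in these pools came from the 129 allele.

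Tagln (chromosome 9, 45929619 to 45936058, minus strand) stood at 41.3 CPM in WT and 12.7 in XiΔXist, against 106 with shSCR and 127 with shYY1, in the same order of pools as Acta2. It was 3.25 times higher in WT than in XiΔXist (2.88 to 3.67), with a log2 change of -1.62. Both alleles took part, the 129 reads at a ratio of 0.411 (0.322 to 0.522) and the CAST reads at 0.280 (0.242 to 0.323). Tagln overlaps Pcsk7 on the other strand, which had 332 reads over the 4 pools, and shares 877 transcript bases with Gm48529, an antisense gene that was not among those counted. Since a strand setting of the counting was not given in the sources used here, reads of these genes cannot be told apart where they overlap.

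Myl9 (chromosome 2, 156775420 to 156781658, plus strand) had few reads in the untreated cells, 45 in WT and 12 in XiΔXist, against 171 in shSCR and 210 in shYY1. In CPM these were 1.85, 0.424, 71.4 and 83.9. The ratio of WT to XiΔXist was 4.37, with a wide interval of 2.27 to 9.08. Its log2 change sat on the threshold and came short of it at -0.94 with TMM scaling and at -0.34 with 5 added in place of 1.

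The tropomyosins were lower in XiΔXist without a call. Tpm1 (chromosome 9, 67022590 to 67049406, minus strand), the most read of the 10 in WT, stood at 565 CPM in WT and 291 in XiΔXist, against 1087 with shSCR and 1297 with shYY1. Its ratio of WT to XiΔXist was 1.94 (1.89 to 1.99), with an interval that ended just under 2-fold. Tpm2 (chromosome 4, 43514711 to 43523765, minus strand) stood at 1.40, 0.671, 48.0 and 43.5 CPM, from 34, 19, 115 and 109 reads. Its ratio of WT to XiΔXist was 2.09 (1.16 to 3.87) and its log2 change with the added 1 was -0.52.

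Cnn2 and Myh9 were also lower in XiΔXist without a call. Cnn2 (chromosome 10, 79988584 to 79996062, plus strand) stood at 89.96 CPM in WT and 63.8 in XiΔXist, against 357 with shSCR and 246 with shYY1. The ratio of WT to XiΔXist was 1.41 (1.325 to 1.502). Myh9 (chromosome 15, 77760587 to 77842175, minus strand) stood at 136, 92.7, 2182 and 1974 CPM. Its ratio of WT to XiΔXist was 1.47 (1.39 to 1.54).

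Srf (chromosome 17, 46548329 to 46556175, minus strand), the gene of the shared regulator, stood at 6.29 CPM in WT and 6.25 in XiΔXist, against 31.8 with shSCR and 30.7 with shYY1. The ratio of XiΔXist to WT was 0.993 (0.795 to 1.24), so the RNA of Srf did not differ detectably between the lines that differed in Acta2. Its log2 change of -0.01 takes either sign under the other scalings, up to 0.17.

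The remaining pair had too few reads for a call between the untreated lines. Cnn1 (chromosome 9, 22099216 to 22109630, plus strand) had 25, 23, 26 and 26 reads in the 4 pools, or 1.03, 0.812, 10.9 and 10.4 CPM. Its ratio of XiΔXist to WT was 0.789 (0.428 to 1.45). Actg2 (chromosome 6, 83512905 to 83536265, minus strand) had 8 reads in WT and 32 in XiΔXist, against 3 with shSCR and 7 with shYY1, or 0.329, 1.13, 1.25 and 2.80 CPM. It was the single member with a higher level in XiΔXist than in WT, at a ratio of 3.43 (1.55 to 8.62), and 26 of its 32 reads there were from CAST.

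**Figure D1:**
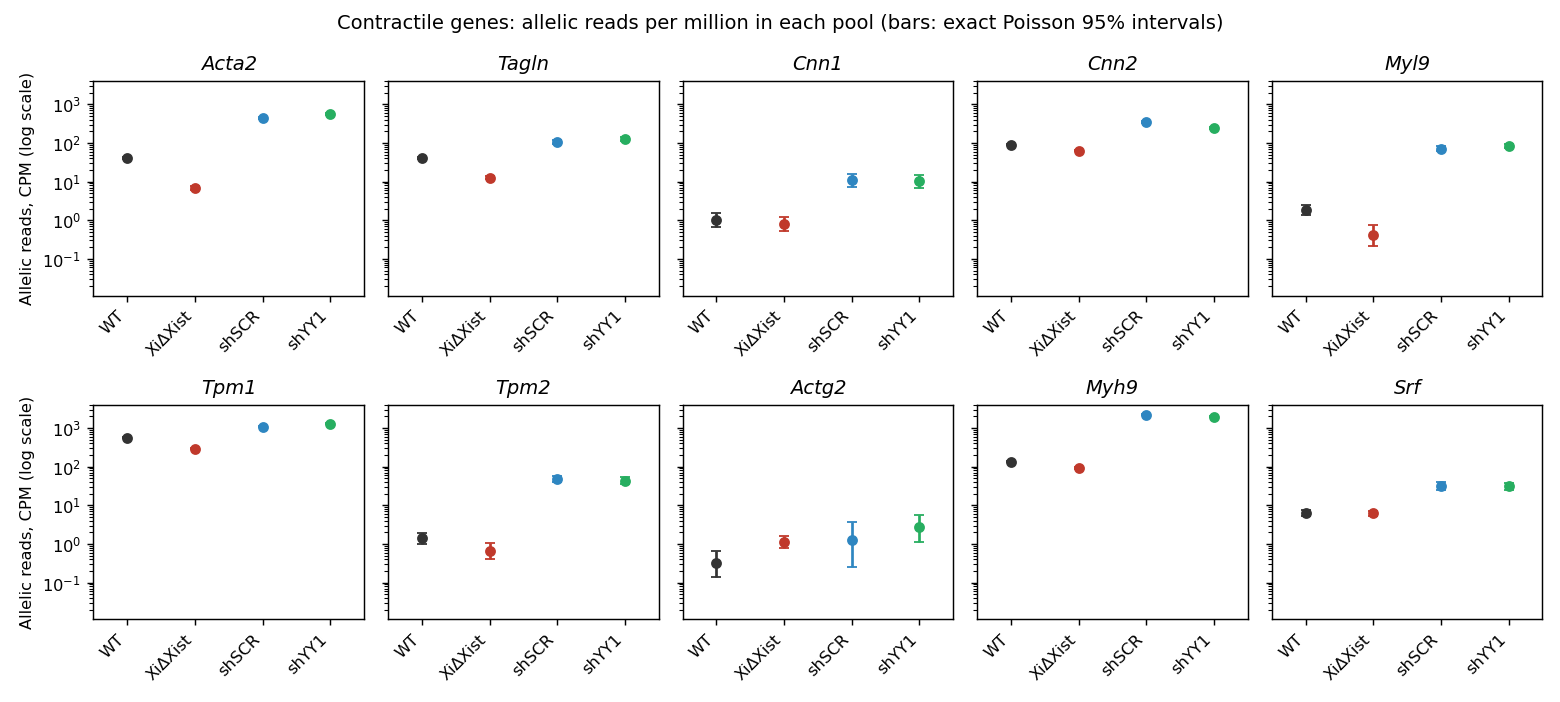
Level of each gene in CPM (log scale) in the WT, untreated XiΔXist, shSCR and shYY1 pools, with exact Poisson 95% intervals as bars and 1 pool per point. XiΔXist is the lowest pool for every gene but Actg2, for Srf and Cnn1 within the counting error of WT, and Acta2 runs from 6.88 CPM in XiΔXist to 574 in shYY1.

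The genes around these loci did not all move alike. Over the 20 nearest genes with enough reads the median log2 change from WT to XiΔXist was -0.22 at Acta2, -0.25 at Tagln, 0.00 at Myl9 and -0.32 at Tpm1. The single neighbours of Acta2 ranged from -3.73 to 2.33. After subtraction of the neighbours' median Acta2 stood at -2.22, Tagln at -1.38, Myl9 at -1.01 and Tpm1 at -0.63. This comparison gave a median log2 change of -0.10 to -0.13 in every quintile of all genes by the GC content of the longest transcript, with 7.41% of genes at least 2-fold lower in the lowest quintile and 4.66% in the highest.

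Of 33 other actomyosin genes listed, 25 had enough reads, 3 of these (12%) were at least 2-fold lower in XiΔXist and 0 higher, where 6.21% of all genes were lower and 3.07% higher, and the median log2 change was -0.34. The lowest were Synpo2, a Z-disc and stress fibre protein, from 9.34 CPM in WT to 1.59 in XiΔXist (log2 change -2.00), and Palld, an actin bundler, from 7.49 to 1.84 (-1.58). The third was Myl12b, another myosin light chain, from 113 to 51.6 CPM (-1.11). At the other end stood the focal adhesion gene Vcl at 0.68 and Mylk, the kinase of the myosin light chain, at 0.55, neither of them called.

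Among the partners of SRF, Myocd, the cofactor of smooth muscle, fell from 90 reads in WT to 4 in XiΔXist (3.70 to 0.141 CPM, log2 change -2.04), and 87 of its 90 reads in WT were from the CAST allele. Tead2, which encodes a TEAD transcription factor, stood at -0.93, without a call. The ternary complex factors Elk1, Elk3 and Elk4, which also bind SRF, stood at -0.07, 0.14 and -0.06, and Tead1, Tead3 and Tead4 at -0.78, -0.02 and -0.07. The MRTF genes were not called, Mrtfa at -0.35 from 1.44 and 0.918 CPM and Mrtfb at -0.14 from 32.4 and 29.2 CPM.

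TGF-beta signalling gave 4 genes lower (19.0%) and 1 higher (4.76%) of 21 with enough reads, beside the same 6.21% and 3.07% of all genes, with a median log2 change of -0.29. The ligand gene Tgfb2 had 538 reads in WT and 13 in XiΔXist (22.1 and 0.459 CPM, log2 change -3.99). Ltbp2, which encodes a latent TGF-beta binding protein, fell from 41.5 to 5.61 CPM (-2.69). Postn, the matricellular protein periostin, fell from 490 to 103 CPM (-2.24) and Ccn2 from 58.1 to 19.4 CPM (-1.54). The co-receptor gene Tgfbr3 was higher, at 62.4 and 132 CPM (1.07), followed by the receptor Tgfbr1 at 0.51. Of the 2 smooth muscle markers that could be called, Myocd and Synpo2, both were lower, the same genes as counted above in other lists. Fibroblast markers went both ways, with Col1a1 at -1.15 and Col1a2 at -1.09 against Dcn at 1.58 and Thy1 at 1.44. The part of cell makeup in the lower Acta2 and Tagln was not tested. In these pools fewer cells with a transcript and less of it per cell cannot be told apart. Kdr, an endothelial marker, was lower at -1.71, and Cdh5 stood at 0.83.

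Allelic reads separated genes that could report on both copies from those that could not. Acta2 and Cnn1 had no CAST read in any pool, which at Acta2 allows a CAST share of up to 0.294% in WT and 1.54% in XiΔXist, and at Cnn1 up to 12% and 13%. Myh9 was 99.8% to 99.9% from 129. The 20 nearest genes had a median 129 share of 100% or 99.99% at all 3 genes in every pool, and 17 to 20 of the 20 were above 95%, so the genes around these were read from 129 alike.

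From WT to XiΔXist the 129 share rose for 2 of 9 genes tested and fell for 0, where it rose for 6.77% and fell for 11.6% of all 11909 genes tested. Tpm1 had 4135 reads from 129 and 9593 from CAST in WT, against 4134 and 4116 in XiΔXist. Its 129 share went from 30.1% (Wilson 95% interval 29.4% to 30.9%) to 50.1% (49.0% to 51.2%), with a Benjamini-Hochberg adjusted p of 1.1e-188 in a two-sided Fisher's exact test. In CPM the CAST allele stood at a ratio of XiΔXist to WT of 0.368 (0.355 to 0.382) and the 129 allele at 0.858 (0.822 to 0.896). The difference in Tpm1 between the 2 lines therefore lay mostly in the CAST reads.

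Tagln, on the same chromosome, had 215 reads from 129 and 788 from CAST in WT, against 103 and 257 in XiΔXist. Its 129 share was 21.4% (19.0% to 24.1%) and 28.6% (24.2% to 33.5%), and the rise had an adjusted Fisher p of 0.038. Other genes of chromosome 9 that were read from both alleles moved with both. Over 309 such genes the median 129 share was 34.9% in WT and 50.9% in XiΔXist, a median change of 14.5 points, and the neighbours' medians went from 35.8% to 52.1% at Tagln and from 33.8% to 49.0% at Tpm1. Less that median change, Tagln stood at -7.32 points, in the other direction. Around Cnn1, on the same chromosome, the 20 nearest genes were read almost wholly from 129 and had a median change of 0 points. The part of the chromosome in the allelic change of both genes was not tested.

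Away from chromosome 9 no share passed the test. Cnn2 drew most of its reads from 129 in both pools, 84.1% (82.5% to 85.6%) and 81.1% (79.2% to 82.8%), well above its neighbours' medians of 53.4% and 52.3%. The difference had an adjusted Fisher p of 0.058. Srf was read about evenly, at 47.7% (39.95% to 55.6%) and 44.1% (37.0% to 51.4%). Myl9, with 12 and 3 CAST reads, stood at 73.3% (59.0% to 84.0%) and 75% (46.8% to 91.1%), and Tpm2, with 4 in each pool, at 88.2% (73.4% to 95.3%) and 78.9% (56.7% to 91.5%).

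**Figure D2:**
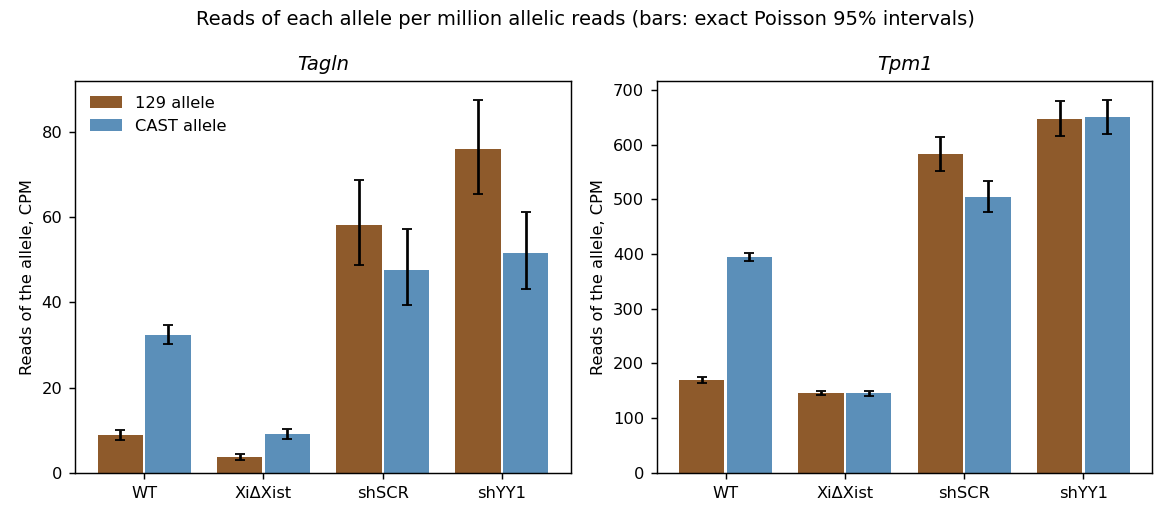
Reads of the 129 and the CAST allele of Tagln and Tpm1 in each pool, in CPM, with exact Poisson 95% intervals. CAST exceeds 129 at both genes in WT, the alleles of Tpm1 stand at 146 and 145 CPM in XiΔXist, and at Tagln 129 overtakes CAST in the hairpin pools.

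The shSCR pool was set against untreated XiΔXist as the background of the hairpin experiment, with the untreated pool shared with the comparison above. All 8 genes with enough reads were at least 2-fold higher in shSCR, with a median log2 change of 3.75. Across all 10444 genes tested 39.7% were higher and 24.9% lower, and the split turned to 24.2% and 45.5% with TMM scaling, which took the median log2 change of all genes from 0.38 to -0.75. Less the median of 0.38 the 8 changes ran from 1.52 for Tpm1 to 5.42 for Acta2. Acta2 was 63.6 times its untreated level (54.5 to 74.4), Myl9 169 times (94.1 to 333), Tpm2 71.6 times (43.9 to 123) and Myh9 23.5 times (22.4 to 24.7). Tagln was 8.32 times higher (7.05 to 9.80), Cnn2 5.59 (5.15 to 6.07), Srf 5.08 (3.83 to 6.69) and Tpm1 3.73 (3.57 to 3.90).

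These differences stood beside a difference of the libraries. By the study's list of sequencing runs the hairpin libraries were sequenced with longer paired reads and less deeply. Across all genes the share at least 2-fold higher in shSCR climbed with the GC content of the longest transcript, from 5.76% in the lowest quintile through 14.4%, 31.6% and 60.8% to 85.9% in the highest, while the share lower dropped from 57% to 3.79%. The transcripts of the 8 genes had a GC content of 49.6% to 64.4%, which put each in quintile 4 or 5. Relative to the median of its own quintile Acta2 was still higher by 4.40 on the log2 scale, Myl9 by 2.44, Tpm2 by 1.65, Tagln by 1.56 and Myh9 by 1.32. Tpm1 stood at 0.49, Cnn2 at -0.76 and Srf at -1.05. The part of GC content, read length, virus or selection in the higher levels was not tested, and these cannot be told apart from the hairpin here.

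**Figure D3:**
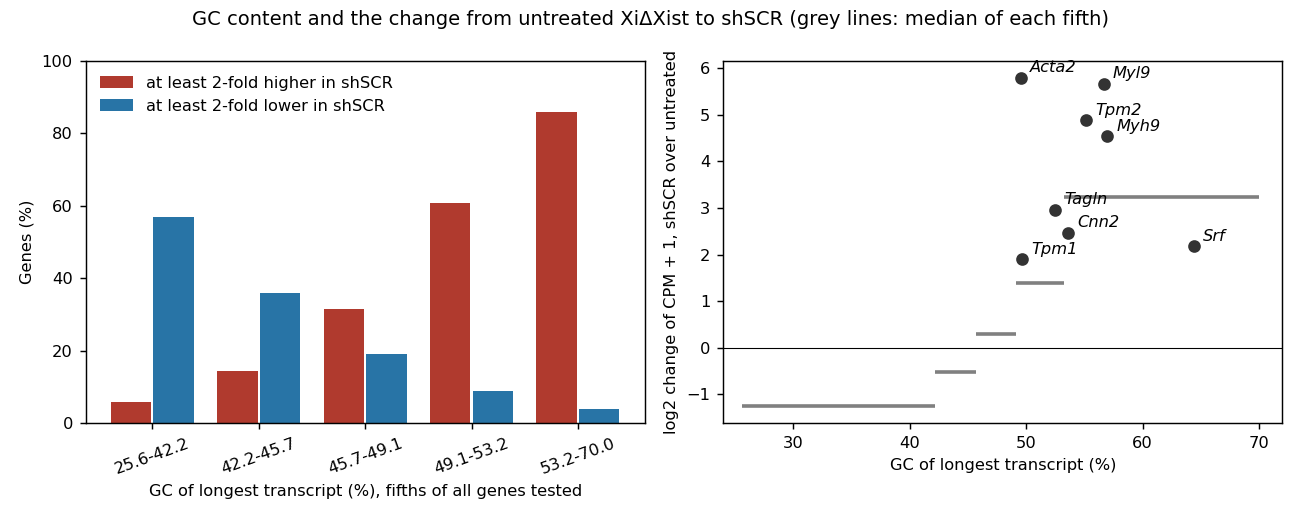
Left, percentage of all genes tested that were at least 2-fold higher or lower in shSCR than in untreated XiΔXist, by quintile of transcript GC content. Right, log2 change of CPM + 1 for the 8 genes against their GC content, with the median of each quintile as a grey line, where Acta2, Myl9, Tpm2, Myh9, Tagln and Tpm1 lie above the line of their quintile and Cnn2 and Srf below it.

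The wider lists went both ways, as did all genes, with 39.7% higher and 24.9% lower (24.2% and 45.5% with TMM scaling). Actomyosin genes gave 19 higher (70.4%) and 2 lower (7.41%) of 27, from Actn4 at 7.61 and Flnc at 7.37, a cross-linker and a filamin of actin, down to Cald1 at -1.56 and Actb at -3.99. Tead2 at 5.57 and Mrtfa at 5.37 were higher and Wwtr1, a coactivator of TEAD factors, was lower at -2.37. TGF-beta genes gave 11 higher (55%) and 5 lower (25%) of 20, led by the inhibitor Smad7 at 5.27 and by Ltbp2 at 5.22, with Tgfbr1 at -1.85 and Itgb1 at -1.52 lowest. Fibroblast markers ran from Dcn at -6.29 and Col3a1 at -1.88 to Col1a1 at 6.27 and Col5a1 at 6.69. The smooth muscle markers Smtn (4.60) and Synpo2 (2.29) and the striated muscle marker Tnnt2 (3.78) were higher, and Ttn stood at 0.64.

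Allelic shares moved for 3 of 9 genes between these pools. The 129 share rose for 2, where it rose for 10.9% of all 9548 genes tested, and fell for 1, where it fell for 9.92%. Tagln went from 28.6% to 54.9% (48.8% to 61.0%), from 139 reads of 129 and 114 of CAST in shSCR, with an adjusted Fisher p of 1.7e-09. The median of its neighbours stayed at 52.1% and 51.9%. The 129 allele was 16.0 times its untreated level (12.3 to 20.8) and the CAST allele 5.25 times (4.17 to 6.57). Tagln, once far below the median share of its neighbours, so came near it. Single neighbours in untreated XiΔXist ranged from 17.5% to 81.0%, and its share there lay within that range. Cnn2 went the other way, from 81.1% to 62.2% (58.9% to 65.4%), with an adjusted p of 6.1e-23 and neighbours' medians of 52.3% and 56.9%. Its CAST allele was 11.2 times higher (9.57 to 13.1) and its 129 allele 4.29 times (3.88 to 4.74). Tpm1 rose by 3.49 points, from 50.1% to 53.6%, with an adjusted p of 0.012.

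**Figure D4:**
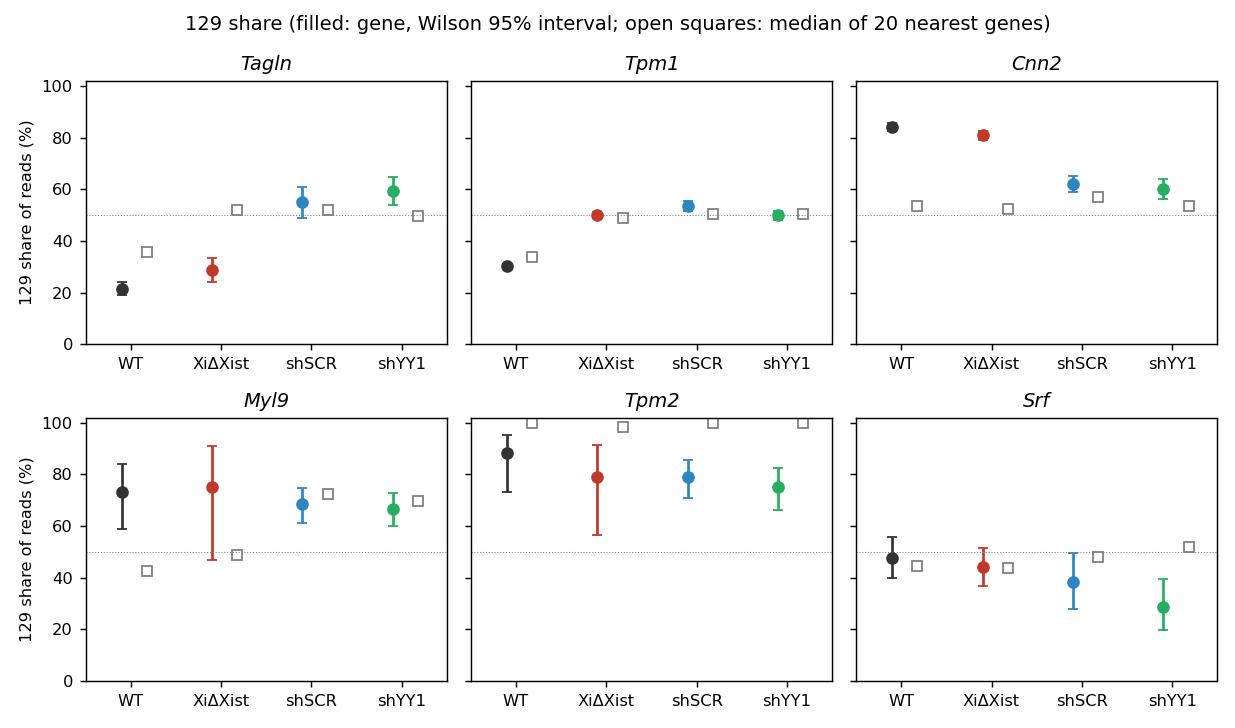
Share of reads from the 129 allele (%) in each pool for the 6 genes read from both alleles, with Wilson 95% intervals, and as open squares the median share of the 20 nearest genes with at least 50 reads in that pool. Tpm1 lies near the median of its neighbours in every pool, Tagln lies below that median in WT and XiΔXist and Cnn2 above it in those pools.

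Knockdown of YY1 was tested against the scrambled hairpin within XiΔXist cells, with the shSCR pool shared with the comparison above. The median log2 change of all genes here lay between -0.02 and -0.17 in every GC quintile. No contractile gene moved by 2-fold in 9 tested, where 1.09% of all 8245 genes tested were higher and 1.33% lower (1.44% and 1.01% with TMM scaling). The log2 changes ran from -0.53 for Cnn2 to 0.39 for Acta2, with a median of -0.04 against -0.08 for all genes. Every one of the 9 intervals lay within 2-fold in either direction.

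Smaller differences exceeded the counting error. Acta2 was higher in shYY1, with 1438 reads against 1047 and a ratio of 1.31 (1.21 to 1.42). Tpm1 had a ratio of 1.19 (1.13 to 1.26) and Tagln of 1.21 (1.02 to 1.43). Cnn2 was lower at 0.691 (0.622 to 0.767), as were its neighbours with a median log2 change of -0.43, and Myh9 was lower at 0.905 (0.870 to 0.941), though level with its neighbours, at 0.04 on the log2 scale above their median. With 1 pool per group these could not be set against the spread between replicates.

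Myl9 at 1.17 (0.955 to 1.44), Tpm2 at 0.906 (0.691 to 1.19), Srf at 0.968 (0.696 to 1.35) and Cnn1 at 0.956 (0.533 to 1.71) did not differ beyond counting error, and the last 3 took either sign under other settings. For Cnn1 that still left room for a change of nearly 2-fold. Actg2 had 3 and 7 reads and was not tested.

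**Figure D5:**
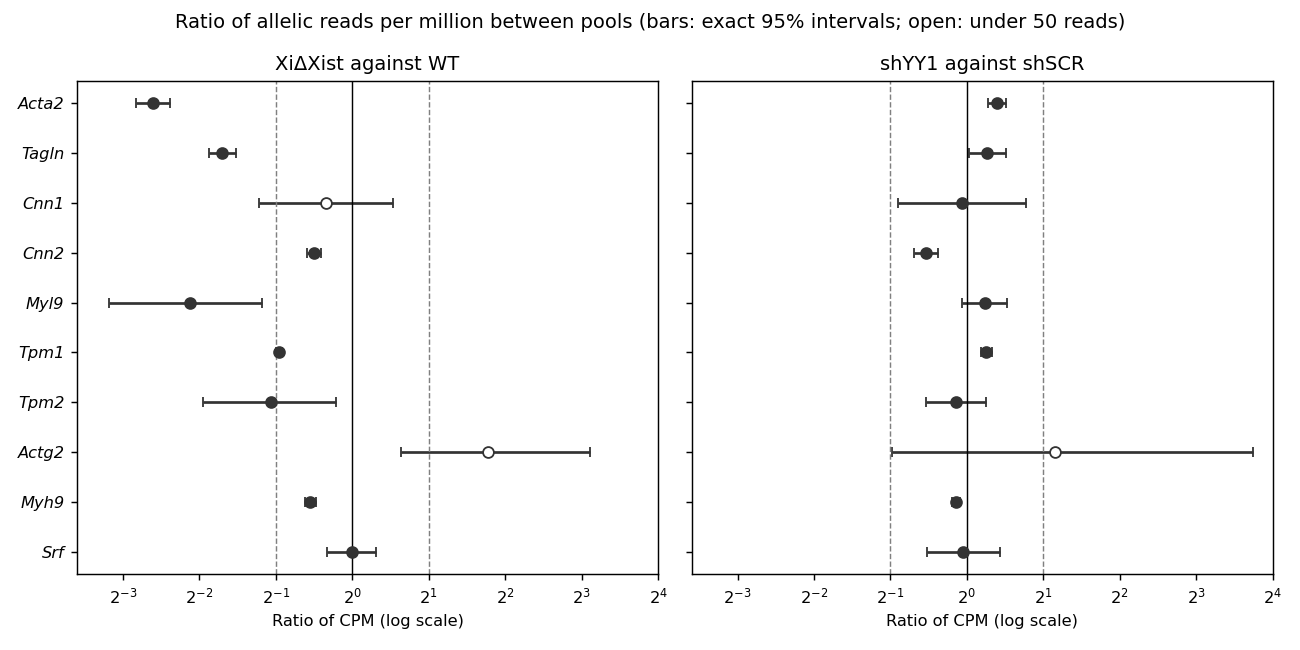
Ratio of CPM for each gene with its exact 95% interval, XiΔXist over WT on the left and shYY1 over shSCR on the right, on a log axis with 2-fold marked by dashed lines and genes under 50 reads as open points. On the left Acta2, Tagln and Myl9 lie wholly below the 2-fold line, and on the right every filled point lies inside both lines.

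Of the genes around them, 0 of 27 actomyosin genes and 0 of 20 TGF-beta genes moved by 2-fold between shYY1 and shSCR. Of all genes tested 1.09% were higher and 1.33% lower, so counts of 0 in lists this short lie near those shares. Myl6 at 0.65 and Ppp1r12a at 0.53 were the highest actomyosin genes and Myl12b at -0.49 and Vasp at -0.45 the lowest. The SRF partners Mrtfa and Elk1 stood at -0.62 and 0.55. In the TGF-beta list Tgfb1 stood at -0.83, against Tgfb2 at 0.80 and Tgfb3 at 0.51. Of 8 fibroblast markers Col3a1 was higher at 1.22, followed by Col1a2 at 0.57, with Pdgfra at -0.26 and Vim at -0.19 lowest. The smooth muscle markers Smtn and Synpo2 stood at 0.09 and -0.26, and the striated muscle markers Tnnt2 at -1.15 and Ttn at 0.06.

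No allelic share of a contractile gene passed the test between shYY1 and shSCR, 0 of 9, where the 129 share rose for 0.636% and fell for 0.556% of all 10070 genes tested. At an unadjusted p under 0.05 there was 1, Tpm1, whose share was 53.6% (51.7% to 55.5%) in shSCR and 49.9% (48.2% to 51.6%) in shYY1, with a two-sided Fisher's exact p of 0.0053 and an adjusted p of 0.16. Tagln was at 59.6% (54.1% to 64.8%) in shYY1 and Cnn2 at 60.1% (56.2% to 63.9%), each with an interval that overlapped that in shSCR. Srf had the largest difference in points, from 38.2% (28.1% to 49.4%) to 28.6% (19.7% to 39.5%), on 76 and 77 reads and with an adjusted p of 0.98.

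Over the 4 pools, 8 of the 10 genes had enough reads, at least 200, to enter a common profile of log2(CPM + 1), centred on each gene's mean. The median profile was -1.12 in WT and -2.16 in XiΔXist, against 1.71 with shSCR and 1.65 with shYY1. The largest step of this profile lay between the untreated and the hairpin pools, a step that followed GC content across all genes. Among 8649 genes the nearest in root mean square distance were Aars at 0.07, Slc7a5 at 0.10, Myo10 at 0.11, Pprc1 at 0.12 and Jrk at 0.12. The part of the libraries in this likeness was not tested. Aars encodes an alanyl-tRNA synthetase, Slc7a5 an amino acid transporter and Myo10 an unconventional myosin. The members lay farther from their own median, from 0.48 for Myh9 to 0.99 for Myl9.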

How the data were processed

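Total RNA of 8 MEF samples was sequenced. According to the study's methods the authors aligned reads with TopHat to mm10 masked at strain differences, assigned them to alleles with SNPsplit and counted them with featureCounts 1.6.3 after pooling replicates. The deposited values are raw counts per gene, allele and group, without normalization. The annotation release and strand setting were not given in the sources used here.

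Counts of both alleles were summed and scaled to all allelic reads of the pool. A pseudocount of 1 CPM, a minimum of 50 reads over both pools and a 2-fold call were used. Ratios have exact (Clopper-Pearson) intervals and shares Wilson intervals, all at 95%, for counting error only, since PCR copies were not told apart. Shares were tested by two-sided Fisher's exact test, adjusted over all genes with at least 10 reads in each pool, and called at 3 points and an adjusted p under 0.05. A share of 0 allows up to 3 counts. Chromosome medians use genes with 10% to 90% of reads from 129. Because replicates were pooled, edgeR's quasi-likelihood test could not be run, and edgeR 4.0.16 gave TMM factors alone. Python 3.11.15, pandas 2.3.3 and scipy 1.17.1 were used, and the calculations were tested on simulated data. GENCODE coordinates were matched to 45229 of 46078 identifiers. Transcript similarity was searched with blastn 2.17.0, and at 90% identity no gene other than Gm48529 covered 50% of a member's transcript. Protein sequences were not used here.

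The genes and lists (actomyosin, SRF partners, TGF-beta, and markers of fibroblasts, smooth muscle and pericytes, striated muscle, epithelium, endothelium and leukocytes) were chosen with earlier results of these data known. The text names Xist, Yy1, the 10 members, the 2 highest and 2 lowest genes of each list and comparison, and the 5 genes nearest in pattern. Myl12b, Postn, Ccn2, Mrtfa, Mrtfb, Elk1, Elk3, Elk4, Tead1, Tead3, Tead4, Des, Myh11, Lmod1, Myod1, Myog, Pax7, Actg1 and Lum were added after their values were seen. Some genes and the counts of 1 list are not reported here. Alternatives were other scalings, pseudocounts, read minimums, fold and share thresholds, single alleles and genes without overlap.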

Additional observations from a re-analysis of the deposited data

How the results depend on the processing

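No paired analysis was possible because the columns pool both replicates of a group, and for the same reason no replicate could be left out. Between WT and XiΔXist the lower Acta2 and Tagln kept their side of 2-fold in every alternative that gave them a value (log2 changes -2.59 to -1.98 and -1.73 to -1.09). The call of Myl9 was lost with TMM, median-of-ratios or median-centred scaling, with 5 added, at 3-fold, and at -0.87 when centred on the GC quintile. The median of the 8 members, -0.75, passed a 1.5-fold threshold, and 1 fibroblast marker in place of 2 was lower after centring. Between untreated XiΔXist and shSCR the members called higher were 5 with CAST reads alone and 5 without overlapping genes, of 5 tested each time. Of all genes tested 32.4% and 40.3% were higher in these settings. In 2 settings chosen after seeing the data, changes were centred on the GC quintile or on the 20 nearest genes. Either left 5 higher and 1 lower of 8, though not the same genes. Centred on the GC quintile, 25.5% of all genes were higher and 25.6% lower, and no such share was computed for the other setting. Tpm1 lost its call at 0.49 against its quintile, and Tagln at 0.98 against its neighbours. Cnn2 turned to -0.76 and -2.17 and Srf to -1.05 and -0.13. The cause was not tested. Tpm1 lost the call at 0.67 with TMM and 0.60 with median-of-ratios scaling, and Srf at 0.98 with the latter.

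The 129 share from WT to XiΔXist fell for 1 gene (Cnn2) with at least 50 reads and for 3 at 3 points without a test, and rose for 1 at 10 points. Less the chromosome's median change, 1 rose (Tpm1) and 1 fell (Tagln, -7.32 points). From untreated XiΔXist to shSCR, 3 fell at 3 points without a test, and 1 rose at 10 points or with CAST reads scaled. Between shSCR and shYY1, 1 rose and 3 fell at 3 points without a test, against 0 with it. The share of all genes that rose or fell was not computed in these alternative settings, so their counts have no background beside them. Depth limits Cnn1 and Actg2 in every comparison and Myl9 and Tpm2 in the untreated pools.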

Other observations

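Cytoplasmic actins differed in opposite directions between the untreated and the shSCR pools of XiΔXist cells. Actb, the beta-actin of all cells, had 36995 reads in WT and 45466 in XiΔXist (1522 and 1605 CPM) but 239 in shSCR and 214 in shYY1 (99.9 and 85.5 CPM). Actg1, the gamma-actin of the cytoplasm, stood at 12.3 and 7.94 CPM in the untreated pools and at 415 and 404 CPM in the hairpin pools. From untreated XiΔXist to shSCR 39.7% of all genes tested were at least 2-fold higher and 24.9% lower, and these shares followed GC content. Neither actin was set against its GC quintile, and their transcripts were not searched for similarity to other genes. The part of the libraries in both differences was not tested. Lmod1, a nucleator of actin in smooth muscle, had 34 reads in WT and 1 in XiΔXist, against 6 with shSCR and 9 with shYY1.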
